A study of Mus musculus with 20 samples.

Results

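Early enhancers are 485 transcribed enhancers of mouse macrophages whose level fell between 3 h and 15 h of stimulation. They were chosen from the 11222 enhancers of the deposited tables by 2 conditions: at least 30 tags summed over the 20 libraries, which 3969 enhancers met, and a mean level over the 6 stimulated libraries at 3 h of at least 2 times the mean over the 6 stimulated libraries at 15 h. They thus make up 12.2% of the enhancers with 30 tags and 4.32% of all enhancers. The 3 h and 15 h levels chose them and are given as a description without a test. The fold did not use the levels at 9 h or in unstimulated cells or the differences between stimuli, and these carry the tests. The total of 30 tags did count the 9 h and unstimulated libraries, so a high level there could help an enhancer to be chosen.

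Bone marrow cells of C57BL/6 mice were grown into macrophages with M-CSF from conditioned medium of L929 cells that express the human factor. The stimulated groups received IFN-γ and CpG DNA together, IFN-γ alone or CpG DNA alone for 3, 9 or 15 h, and the unstimulated group stands for 0 h, with 2 biological replicates in each of the 10 groups. No untreated cells cover 3, 9 or 15 h, so time in culture and stimulation cannot be told apart in a comparison with unstimulated cells. The protocols also describe polarization with IL-4 and IL-10 and a longer stimulation, and whether either applies to these libraries is not stated. Capped 5′ ends of RNA were sequenced without amplification (nAnT-iCAGE), and each tag marks 1 transcription start, so a level in RPM, the tags scaled to the total of the library, does not depend on the length of the enhancer. The tables hold enhancers and no genes, so macrophage marker genes could not be checked. The libraries are of bulk RNA, in which fewer cells of a type and less RNA per cell cannot be told apart.

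Active enhancers are transcribed from both strands into short, unstable RNAs, and the tags at their capped ends follow enhancer activity within minutes to hours. IFN-γ signals from its receptor at the cell surface through JAK kinases, while CpG DNA is sensed in endosomes by TLR9, which acts through MyD88 on NF-κB. In macrophages both pathways set off a fast first wave of transcription that feedback inhibitors then dampen, and inflammatory stimuli also silence enhancers that are active in resting cells.

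The CpG DNA named in the treatment protocol is shown because it is the ligand itself, and whether that protocol covers these libraries is not stated. It has 20 bases, and the capitals mark its 2 unmethylated CpG steps, the feature that TLR9 recognises.
CpG ODN-1826: tccatgaCGttcctgaCGtt

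Positions are given on mm39 as the deposited tables write them. No genome or annotation of that build was used here, so no gene, exon or sequence is assigned to any enhancer.

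Early enhancers were sparsely transcribed. Their median total was 46 tags over the 20 libraries, and 157 of the 485 reached 60 tags. The libraries held 12776280 to 13855472 tags, of which 12879 to 29794 fell in enhancers, and 1 tag was worth 0.0722 to 0.0783 RPM. The ratio of the 3 h to the 15 h mean had a median of 2.68 with quartiles of 2.25 and 3.59, was 4 or more in 82 members and reached 22.9. The nearest members inside the threshold were chr2:13409909-13410211 and chr2:144030015-144030499 at ratios of 2.00 and 2.01, and the nearest outside were chr11:62943636-62944251 and chr19:53554259-53554627, just below the threshold, at 2.00 after rounding and 1.99. A ratio of 2 to below 2.5 held 201 members and a ratio of 1.5 to below 2 held 459 enhancers outside the set, so the border runs through a dense range. By replicate 1 alone 612 enhancers met the fold and by replicate 2 alone 592. They shared 235, which is 38.4% of the replicate 1 list and 39.7% of the replicate 2 list. In 10 members all 6 stimulated libraries at 3 h lay above all 6 at 15 h.

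The summed level over the 485 members is given by library for each stimulus, without a test. With both stimuli, early enhancers summed to 224 and 288 RPM at 3 h, to 75.8 and 71.1 RPM at 9 h and to 63.2 and 72.4 RPM at 15 h. With IFN-γ alone the sums were 161 and 123 RPM at 3 h, 86.1 and 108 RPM at 9 h and 65.0 and 65.6 RPM at 15 h. With CpG alone they were 124 and 131 RPM at 3 h, 97.2 and 87.0 RPM at 9 h and 55.8 and 54.2 RPM at 15 h. At 3 h both libraries with the combined stimuli lay above all 4 with a single stimulus, and at 9 h both lay below all 4. Of the fall in summed RPM between 3 h and 15 h, 97.0% was complete by 9 h with both stimuli, 58.4% with IFN-γ and 48.9% with CpG. These percentages depend on the RPM scale, on which the mean sum of all 30-tag enhancers also moved. It was 1359, 993 and 1350 RPM at 3, 9 and 15 h with both stimuli. With IFN-γ it was 860, 1106 and 942 RPM, and with CpG 953, 1147 and 1101 RPM. Unstimulated cells held 138 and 127 RPM in the same enhancers. The 3 h mean was 1.93 times the unstimulated mean with both stimuli, 1.07 times with IFN-γ and 0.961 times with CpG, and the 15 h mean was 0.510, 0.492 and 0.414 times the unstimulated mean in that order of stimuli. As a share of the tags in all 30-tag enhancers, which does not depend on how many tags fell in enhancers at all, early enhancers held 19.2% and 18.5% at 3 h with both stimuli, 16.2% and 16.9% with IFN-γ and 13.5% and 13.3% with CpG, against 11.9% and 11.4% in unstimulated cells. The mean shares at 9 h and 15 h were 7.39% and 5.05% with both stimuli, 8.87% and 6.94% with IFN-γ and 8.03% and 5.00% with CpG. By share, the 9 h value was thus nearer to the 15 h than to the 3 h value with each stimulus.

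**Figure D1:**
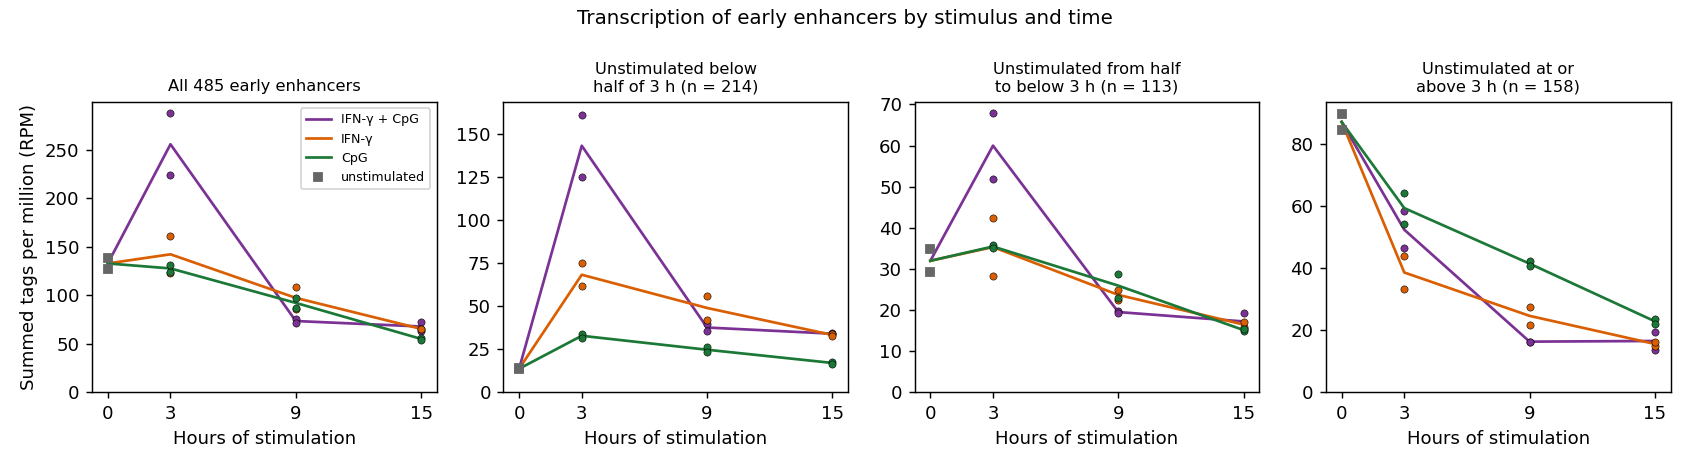
Summed level of early enhancers (RPM, linear axis from 0) against hours of stimulation, for all 485 members and for the 3 classes by unstimulated level; points are libraries, lines join group means, and squares are the 2 unstimulated libraries placed at 0 h. With both stimuli the sum over all members was 256 RPM at 3 h and 73.4 RPM at 9 h, while the members with the highest unstimulated level summed to 87.2 RPM in unstimulated cells and were lower in every stimulated group.

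Some early enhancers had little or no transcription in resting cells and others had more than at 3 h. Relative to the 3 h mean, the unstimulated level had a median of 59.2% over the members, against 94.9% over all 30-tag enhancers. In 214 members (44.1%) the unstimulated level was below 50% of the 3 h level, against 31.8% of all 30-tag enhancers and 23.2% of the 729 late enhancers, which have a 15 h mean of at least 2 times the 3 h mean. In 113 members it was from 50% to below the 3 h level. In 158 members (32.6%) it was at or above the 3 h level, against 47.6% of all 30-tag enhancers. No tag was seen in unstimulated cells for 71 members (14.6%), against 11.6% of all 30-tag enhancers, and at 2 libraries a count of 0 allows up to 3 tags. The 3 h level enters both the choice of the members and this division, which therefore has no test.

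**Figure D2:**
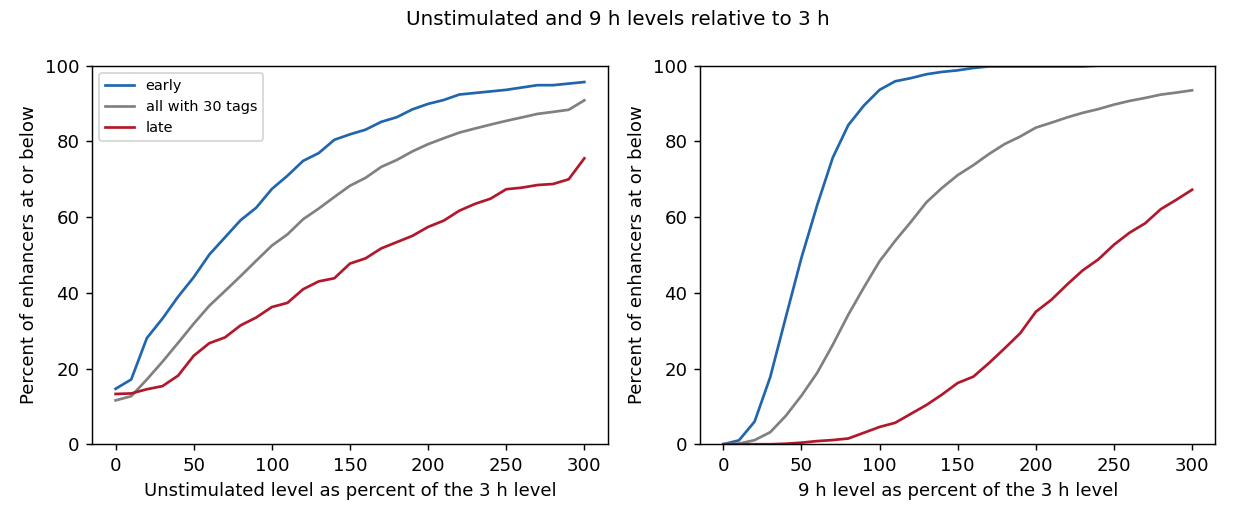
Cumulative share of enhancers (percent) by unstimulated level (left) and by mean stimulated 9 h level (right), each as a percent of the 3 h level, for early, all 30-tag and late enhancers. At the median, early enhancers stood at 59.2% in unstimulated cells and at 50.6% at 9 h, against 94.9% and 104% for all 30-tag enhancers.

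The order of the stimuli at 3 h differed between these classes, given here as values without a test. The 214 members that were low in unstimulated cells summed to 143 RPM with both stimuli at 3 h, to 68.3 RPM with IFN-γ, to 32.8 RPM with CpG and to 13.6 RPM in unstimulated cells. The 158 members at or above their 3 h level in unstimulated cells showed another order, with 52.4 RPM with both stimuli, 38.6 RPM with IFN-γ, 59.4 RPM with CpG and 87.2 RPM in unstimulated cells. The combined stimuli gave the highest 3 h mean in 169 of the 214 low members and in 57 of these 158. CpG alone gave it in 23 of the 214 and in 78 of the 158.

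Levels at 9 h are set here beside the 3 h and 15 h levels that chose the members, as a description. The choice itself favours a 3 h level above that of other times. The median member stood at 0.273 RPM at 3 h, 0.147 RPM at 9 h and 0.101 RPM at 15 h, while the median over all 30-tag enhancers was 0.198, 0.198 and 0.202 RPM. The 9 h level was nearer to the 15 h than to the 3 h level in 368 members (75.9%), against 62.5% of all 30-tag enhancers and 68.9% of the late enhancers. It lay between them in 331 members, below the 15 h level in 123 and above the 3 h level in 31.

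Against unstimulated cells, early enhancers at 9 h were more often lower than higher. Raw counts were tested with edgeR over the 3969 enhancers, and an enhancer was called at an adjusted p under 0.05. With the 3 stimuli averaged, 86 members were called (background over all tested enhancers 11.8%), 79 of them lower (background 8.24%) and 7 higher (background 3.53%). The median log2 difference was -0.41 over the members and -0.03 over all tested enhancers. The number called fell without unstimulated replicate 1 or 2, and so did the background. DESeq2 called 17 (background 2.65%), of which 14 were lower.

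The numbers called at 9 h differed between the stimuli, and the background differed likewise. Called against unstimulated cells were 16.7% of the members with IFN-γ, 16.1% with both stimuli and 3.92% with CpG. With both stimuli and with CpG this was close to the background. With IFN-γ at 9 h, 81 members were called against unstimulated cells (background 13.4%), 49 lower (background 5.11%) and 32 higher (background 8.31%). With both stimuli, 78 were called (background 15.7%), 63 lower (background 6.93%) and 15 higher (background 8.82%). With CpG, 19 were called (background 4.21%), 17 lower (background 1.71%) and 2 higher (background 2.49%). The share lower was above the background with all 3 stimuli and the share higher below it. Across the 3 stimuli 82 members (16.9%, background 9.67%) were lower with at least 1 and 40 (8.25%, background 14.5%) higher with at least 1. With all 3 stimuli 9 members (1.86%, background 0.63%) were lower and 0 higher (background 0.151%), and 0 went both ways (background 0.0504%). The 2 that rose with CpG were chr1:170812822-170812954 and chrX:11945002-11945514, and both calls were lost without any 1 of the 4 libraries. The comparisons share the unstimulated libraries. Without any 1 of the 4 libraries compared, fewer members were called with each stimulus, and the background fell too. DESeq2 called 20 with IFN-γ (background 3.4%) and 19 with both stimuli (background 4.06%). With CpG it called 0 (background 0.857%), where 23 members had an unadjusted p under 0.05. DESeq2 called 8 lower and 12 higher with IFN-γ and 10 lower and 9 higher with both stimuli, so lower members did not clearly outnumber higher ones in these comparisons. With the stimuli averaged it called 14 lower and 3 higher. The shares lower and higher over all tested enhancers are not given for DESeq2, so an excess over the background by direction was not assessed with it.

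**Figure D3:**
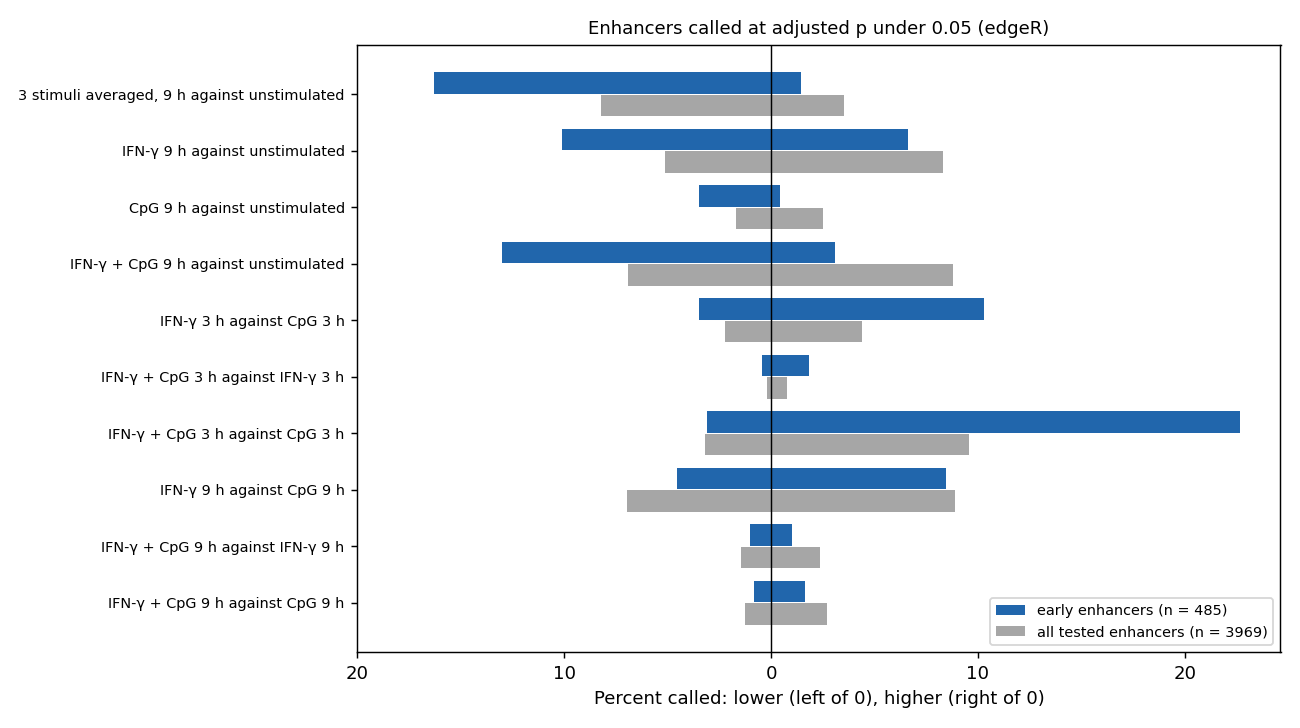
Percent of early enhancers (blue, n = 485) and of all tested enhancers (grey, n = 3969) called by edgeR at an adjusted p under 0.05 in each of the 10 comparisons, lower to the left of 0 and higher to the right. The longest bar is the 110 members higher with both stimuli than with CpG at 3 h, and the largest share lower is the 79 members below unstimulated cells at 9 h with the stimuli averaged.

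Several members that had no tag in unstimulated cells were still transcribed at 9 h. chr16:97336185-97336540 had 13 and 9 tags with both stimuli at 9 h, with IFN-γ 9 and 10 and 1 and 3 with CpG, against 0 and 0 in unstimulated cells. It was at least 7.59-fold higher with both stimuli (adjusted p = 2.15e-05, edgeR) and at least 6.25-fold higher with IFN-γ (adjusted p = 0.000222, edgeR) than in unstimulated cells, where these bounds set the 0 at 3 tags over the group. The CpG libraries lay above 0 but far below the other stimuli. chr1:173879828-173879978 had 11 and 8 tags with both stimuli, 8 and 9 with IFN-γ and 2 and 0 with CpG, against 0 and 0 in unstimulated cells, and it was at least 6.55-fold higher with both stimuli (adjusted p = 7.07e-05, edgeR). On the same chromosome, chr1:173769115-173769459 had 6 and 6 tags with both stimuli, 7 and 12 with IFN-γ and 2 and 2 with CpG, against 0 and 0 in unstimulated cells, and it was at least 6.25-fold higher with IFN-γ (adjusted p = 0.000277, edgeR). At 3 h these 3 enhancers had 17 and 14, 13 and 29, and 7 and 15 tags with both stimuli.

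Other members were transcribed at rest and had few or no tags at 9 h. chr11:119687261-119687636 had 0 and 0 tags with both stimuli at 9 h, with IFN-γ 0 and 0 and 3 and 3 with CpG, against 7 and 11 in unstimulated cells. With the stimuli averaged it was 8.90-fold lower (adjusted p = 7.82e-05, edgeR). chr10:80593373-80593913 had 0 and 0 tags with both stimuli at 9 h, with IFN-γ 0 and 2 and 4 and 3 with CpG, against 12 and 13 in unstimulated cells, while CpG at 3 h still gave 12 and 14. It was at least 8.06-fold lower with both stimuli at 9 h than in unstimulated cells (adjusted p = 0.000101, edgeR). chr5:102650068-102650610 fell with CpG: it had 0 and 0 tags with CpG at 9 h, against 10 and 17 in unstimulated cells, at least 8.88-fold lower (adjusted p = 8.37e-05, edgeR). With IFN-γ at 9 h it kept 5 and 6 tags, which was also below both unstimulated libraries.

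The 8 early enhancers with the highest 3 h level showed several courses. They were ranked on the 3 h libraries, so their differences between stimuli at 3 h are not independent of the ranking. The first, chr1:176651455-176651913, at 3.53 RPM over the stimulated 3 h libraries, was transcribed mainly where IFN-γ had been given. In unstimulated cells it had 1 and 1 tags, with IFN-γ 50 and 37 at 3 h, 19 and 22 at 9 h and 17 and 13 at 15 h, and with both stimuli 83 and 111 at 3 h, 15 and 10 at 9 h and 17 and 16 at 15 h. With CpG it had 2 and 3 tags at 3 h and none at 9 h or 15 h. The groups with IFN-γ did not overlap with those without it at any time. At 3 h the level was 3.31 ± 0.659 RPM with IFN-γ and 0.189 ± 0.0563 RPM with CpG (SD, n = 2 each), 17.6-fold higher with IFN-γ (adjusted p = 1.34e-14, edgeR). At 9 h it was at least 13.3-fold higher with IFN-γ than with CpG (adjusted p = 3.43e-10, edgeR).

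The second, chr11:117878837-117879183, reached 55 and 76 tags with both stimuli at 3 h, against 28 and 25 with IFN-γ and 19 and 18 with CpG. The combined stimuli were above both single ones, and the level was 3.42-fold higher than with CpG alone (adjusted p = 0.000162, edgeR). With both stimuli it then dropped to 8 and 5 tags at 9 h, while with IFN-γ it had 10 and 18 tags at 9 h and 25 and 21 at 15 h, close to its 3 h level. Unstimulated cells had 9 and 6 tags. The eighth, chr2:116848948-116849295, had 30 and 23 tags with both stimuli at 3 h, with IFN-γ 18 and 15 and 4 and 3 with CpG, against 8 and 2 in unstimulated cells. It was 7.32-fold higher with both stimuli than with CpG (adjusted p = 1.00e-04, edgeR).

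The members ranked 3 and 4 were also transcribed in resting cells. chr2:13418349-13418747 had 40 and 44 tags with both stimuli at 3 h, with IFN-γ 23 and 0 and 36 and 31 with CpG, against 30 and 26 in unstimulated cells. The 2 IFN-γ libraries stood apart from each other, so its differences between stimuli at 3 h rest on the library with 0 tags: without it, the adjusted p of edgeR was 0.477 for IFN-γ against CpG and 0.672 for both stimuli against IFN-γ. At 9 h it had 5 and 6 tags with IFN-γ, against 30 and 26 in unstimulated cells, 5.16-fold lower (adjusted p = 0.000101, edgeR, and 0.142 with DESeq2). chr13:49343340-49343837 with CpG had 28 and 32 tags at 3 h, 23 and 18 at 9 h and 19 and 22 at 15 h, against 27 and 33 in unstimulated cells. With IFN-γ it had 5 and 4 tags at 9 h and 5 and 5 at 15 h, and at 9 h it was 6.75-fold lower than in unstimulated cells (adjusted p = 6.06e-06, edgeR). The remaining members of the 8 were chr11:16952806-16953220, chr10:12839072-12839363 and chr17:26733530-26734046, with 3 h means of 1.51, 1.40 and 1.38 RPM against 0.843, 0.294 and 2.17 RPM in unstimulated cells.

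**Figure D4:**
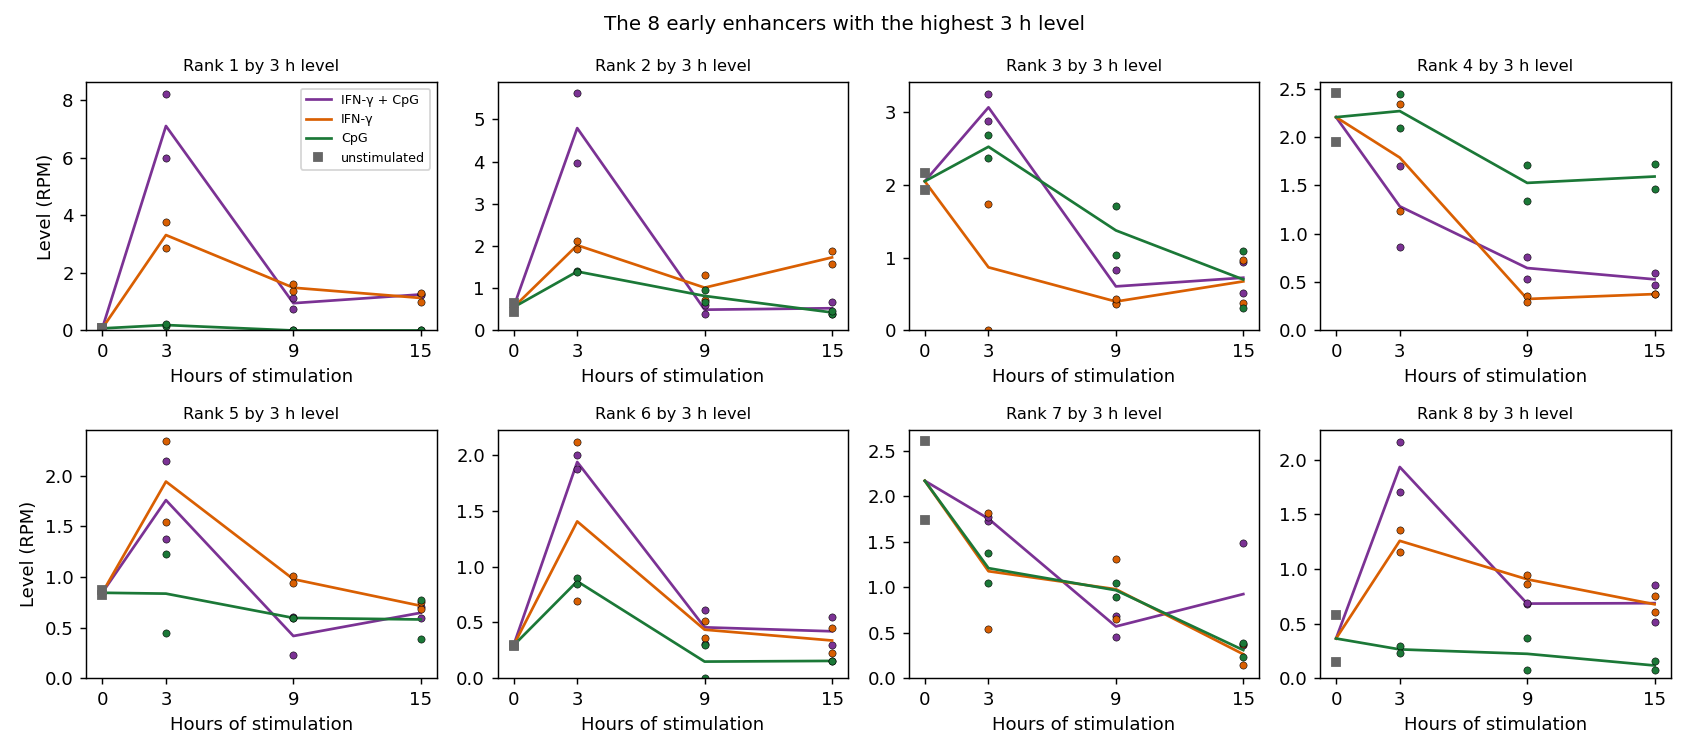
Level in RPM (linear axes from 0, each with its own range) against hours of stimulation for the 8 early enhancers with the highest 3 h level, ranked from left to right and top to bottom; points are libraries, lines join group means, and squares at 0 h are unstimulated cells. Rank 1 stays at or near 0 with CpG, and ranks 3, 4 and 7 were above 2 RPM in unstimulated cells.

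At 3 h, more early enhancers were called higher with IFN-γ than with CpG than the reverse. Of the members 67 were called (background 6.63%), 50 higher with IFN-γ (background 4.38%) and 17 lower (background 2.24%). The excess lay in the 214 members low in unstimulated cells, with 42 higher and 5 lower. The 113 members between had 6 and 4, and the 158 at or above their 3 h level in unstimulated cells had 2 and 8. By mean level, CpG alone was the highest of the 3 stimuli at 121 members and IFN-γ alone at 63. The median log2 difference was 0.44 over the members, against 0.04 over all tested enhancers, and with whole-library totals in place of enhancer tags 0.20 against -0.15, with 35 higher and 22 lower. These groups were among those that chose the members, though this contrast was not, and a single high group can carry an enhancer over the fold. Fewer members were called without any 1 of the 4 libraries, and DESeq2 called 9 (background 1.59%), all higher with IFN-γ.

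The members named next had no tag in 1 of the compared groups, so their folds are bounds and give no order. chr6:113215477-113215828 had 15 and 11 tags with IFN-γ and 0 and 0 with CpG, at least 8.75-fold higher (adjusted p = 7.74e-06, edgeR), while unstimulated cells had 5 and 3. chr11:58870081-58870635 had 12 and 12 tags with IFN-γ and 0 and 0 with CpG, at least 8.08-fold higher (adjusted p = 2.25e-05, edgeR). chr12:73927216-73927600 had 7 and 11 tags with IFN-γ and 0 and 0 with CpG, and 0 and 0 in unstimulated cells. Unstimulated cells had 0 and 1 tags at the second. In the other direction, chr7:140974103-140974501 had 0 and 0 tags with IFN-γ and 11 and 12 with CpG at 3 h, at least 7.59-fold lower with IFN-γ (adjusted p = 0.000844, edgeR), and it had 0 and 0 with IFN-γ and 7 and 4 with CpG at 9 h. With both stimuli at 3 h it had 4 and 8 tags, between the single stimuli.

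The combined stimuli gave the highest 3 h level at 301 early enhancers (62.1%), against 46.5% of all 30-tag enhancers. Both combination libraries lay above all 4 single-stimulus libraries at 154 members (31.8%, background 17.9%) and below all 4 at 17 (3.51%, background 6.02%). The combined mean exceeded the sum of the single means at 218 members (44.9%), against 32.0% of all 30-tag enhancers. At 9 h 41 members (8.45%) were above all 4 single-stimulus libraries (background 8.67%) and 32 (6.60%) below (background 7.38%). At 15 h 47 members (9.69%) were above (background 15.1%) and 15 (3.09%) below (background 4.56%). The 3 h and 15 h libraries with the combined stimuli are part of the fold, which a high 3 h level in this group helps to meet. The 9 h libraries do not enter the fold and count only toward the total of 30 tags.

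Most of the tested difference at 3 h was between the combined stimuli and CpG. These 3 h libraries are part of the rule. By the fold of 2 within each stimulus, 396 members passed with both stimuli, 286 with IFN-γ and 240 with CpG. A high 3 h level with both stimuli helped to meet the rule, so its part in the counts below cannot be told apart from the stimulus. Of the members 125 were called (background 12.7%), 110 higher with both stimuli (background 9.55%) and 15 lower (background 3.2%). Fewer members were called without any 1 of the 4 libraries, and DESeq2 called 19 (background 2.29%). Against IFN-γ alone, 11 members were called (background 0.932%), 9 higher with both stimuli (background 0.756%) and 2 lower (background 0.176%). That count depended on the settings: whole-library totals gave 27, all higher, and without any 1 of the 4 libraries 0 or 1 was called, with 64 to 78 members at an unadjusted p under 0.05 where the count was 0. DESeq2 called 0 (background 0.0252%), with 16 at an unadjusted p under 0.05. Whole-library totals gave a median log2 difference of 0.63 over all tested enhancers and 0.91 over the members, against 0.21 and 0.47 with enhancer tags.

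Of the members with no CpG tag at 3 h, those named here had tags with IFN-γ alone too. A high 3 h level with both stimuli helped them to meet the rule, so their p-values are not independent of that choice. chr4:132522111-132522441 had 15 and 22 tags with both stimuli and 0 and 0 with CpG at 3 h, at least 11.9-fold higher (adjusted p = 1.91e-06, edgeR), and 7 and 4 tags with IFN-γ alone. chr11:21170765-21171099 had 8 and 28 tags with both stimuli and 0 and 0 with CpG, at least 11.6-fold higher (adjusted p = 2.52e-05, edgeR), and 2 and 2 with IFN-γ alone. chr1:37026187-37026615 had 14 and 17 tags with both stimuli and 0 and 0 with CpG, at least 9.99-fold higher (adjusted p = 3.16e-05, edgeR), and 6 and 10 with IFN-γ alone. In each of the 3 the IFN-γ libraries lay between the other groups.

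Members higher with both stimuli than with each alone at 3 h numbered 2 (0.412%, background 0.302%), and they were singled out after their values were seen. Their high 3 h level with both stimuli helped them to meet the rule, and chr8:66844292-66844708 met it through that group only. Their p-values at 3 h are therefore not independent of the choice of members. chr8:66844292-66844708 had 6 and 11 tags with both stimuli, 0 and 0 with IFN-γ and 0 and 0 with CpG at 3 h, at least 5.43-fold higher than with IFN-γ (adjusted p = 0.0444, edgeR) and at least 5.48-fold higher than with CpG (adjusted p = 0.00397, edgeR). chr13:5819692-5820039 had 10 and 16 tags with both stimuli, 1 and 0 with IFN-γ and 0 and 4 with CpG, 24.9-fold higher than with IFN-γ (95% counting interval 4.09 to 1021, which covers counting error only; edgeR, adjusted p = 0.0377) and 6.29-fold higher than with CpG (adjusted p = 0.0310, edgeR). For both, the call against IFN-γ was lost without any 1 of the 4 libraries, with adjusted p values of edgeR of 0.0797 to 0.424. It was also lost without the filter on low totals (0.140 for the first and 0.109 for the second) and with DESeq2 (0.966 and 0.991). The call of the first against CpG was lost without either CpG library or without replicate 2 of the combination (0.0532 to 0.0772), and that of the second without CpG replicate 1 (0.379) or without replicate 2 of the combination (0.172). The member furthest below IFN-γ alone was chr7:144664396-144664792, with 6 and 6 tags with both stimuli and 22 and 17 with IFN-γ at 3 h, 3.39-fold lower (adjusted p = 0.0189, edgeR), a call that no leave-one-out fit kept.

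At 9 h the shares of members called between stimuli were below the background. They were 13.0% for IFN-γ against CpG, 2.06% for both stimuli against IFN-γ and 2.47% for both stimuli against CpG. IFN-γ against CpG called 63 members (background 15.8%), 41 higher with IFN-γ (background 8.87%) and 22 lower (background 6.98%), and the median log2 difference was 0.08 over the members and 0.06 over all tested enhancers. Fewer were called without any 1 of the 4 libraries, and DESeq2 called 11 (background 3.0%). In 13 of the 63 (2.68% of the members, background 3.75%) the libraries of IFN-γ and CpG lay on opposite sides of both unstimulated libraries. Both stimuli against IFN-γ called 10 (background 3.85%), 5 higher (background 2.39%) and 5 lower (background 1.46%), and 2 or 3 without any 1 of the 4 libraries. Both stimuli against CpG called 12 (background 4.01%), 8 higher (background 2.72%) and 4 lower (background 1.28%), and 2 to 5 without any 1 of the 4 libraries. DESeq2 called 1 (background 0.554%) and 2 (background 1.06%) in these comparisons.

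Single members still differed clearly between stimuli at 9 h. chr6:51523171-51523412 had 9 and 6 tags with IFN-γ and 0 and 0 with CpG at 9 h, at least 4.87-fold higher with IFN-γ (adjusted p = 0.00206, edgeR), and it had no tag with CpG at any time or in unstimulated cells. chr11:117832354-117832607 had 0 and 0 tags with IFN-γ and 15 and 6 with CpG at 9 h, at least 7.19-fold lower with IFN-γ (adjusted p = 0.000202, edgeR), against 8 and 5 in unstimulated cells. chr17:35221557-35221747 had no tag with the mixture at 9 h: it had 0 and 0 tags with both stimuli, 12 and 14 with IFN-γ and 5 and 6 with CpG. It was at least 8.27-fold lower with the mixture than with IFN-γ (adjusted p = 0.000233, edgeR), and at least 3.59-fold lower than with CpG (adjusted p = 0.0298, edgeR, lost without any 1 of the 4 libraries).

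The preference for IFN-γ or CpG was compared between 3 h and 9 h, which share no library. Of the 50 members higher with IFN-γ than with CpG at 3 h, 18 (36.0%) were also called higher at 9 h, which is 43.9% of the 41 called then. Over all tested enhancers these shares were 51.7% and 25.6%. Of the 17 higher with CpG at 3 h, 7 (41.2%) were so at 9 h, 31.8% of the 22 called then, and over all tested enhancers the shares were 55.1% and 17.7%. No member was called in opposite directions. Across the 485 members the log2 differences at 3 h and 9 h had a Pearson r of 0.63 and a Spearman rho of 0.66, with the same sign in 73.8%, against 0.57, 0.57 and 70.4% across the 3969 tested enhancers. Enhancers are not independent replicates, and a member with few tags takes only a few possible values.

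**Figure D5:**
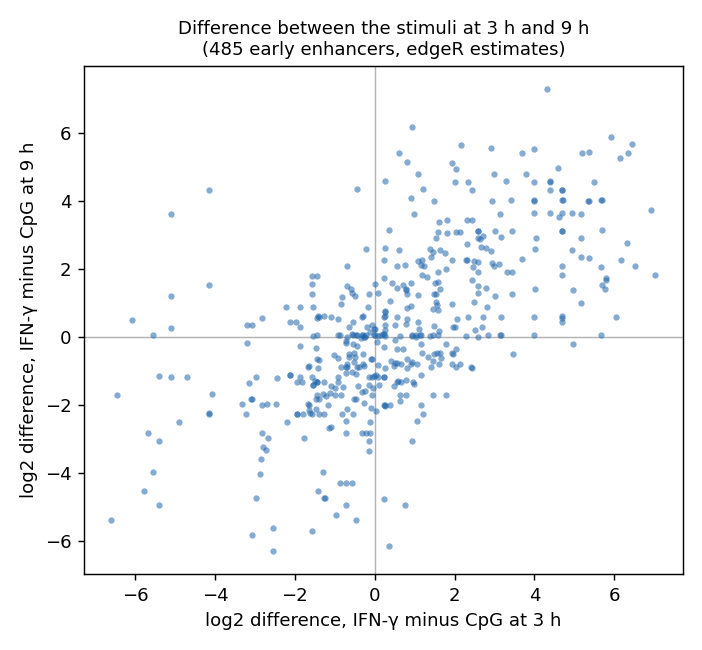
Difference between IFN-γ and CpG at 9 h (vertical) against the same difference at 3 h (horizontal), both as fitted log2 values of edgeR, with 1 point for each of the 485 early enhancers. Points spread from lower left to upper right with a Pearson r of 0.63. Where a compared group had no tag, the value is not an estimate of a fold.

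The steepest declines, ranked among members with at least 30 tags at 3 h, included enhancers with no tag at rest and enhancers with several. chr1:95243303-95243549 had 11 and 20 tags with both stimuli at 3 h, with IFN-γ 6 and 3 and 0 and 1 with CpG, 5 tags over the 6 libraries at 9 h, 2 over those at 15 h, and none in unstimulated cells. Its ratio of 3 h to 15 h was 20.3, and at 3 h it was 29.98-fold higher with both stimuli than with CpG (95% counting interval 5.00 to 1222). Most of its 3 h tags came from the combined stimuli, which helped it to meet the rule and to rank here. This fold is therefore a description. chr11:81957936-81958349, with a ratio of 5.99, had 13 and 14 tags with both stimuli at 3 h and 4 tags over the 6 libraries at 9 h. chr8:68609764-68610230, with a ratio of 9.41, peaked instead with CpG, with 15 and 8 tags at 3 h, and had 3 and 3 tags in unstimulated cells. chrX:56348913-56349126, with a ratio of 11.2, had 3 to 7 tags in each stimulated 3 h library and 3 and 6 in unstimulated cells. The other 4 were chr7:74333671-74334125, chr11:21170765-21171099, chr11:121639250-121639413 and chr10:80593373-80593913, with ratios of 8.29, 6.47, 5.62 and 5.50.

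Early enhancers lay near each other. Another early enhancer was within 50 kb of 165 members (34.0%), against 18.5% of all 30-tag enhancers and 6.17% of late enhancers. A late enhancer was within 50 kb of 48 members (9.90%), against 24.6% of all 30-tag enhancers and 36.2% of late enhancers. Nearness to enhancers of the same set was thus seen in both the early and the late set. The nearest enhancer of any kind was within 10 kb for 77.1% of members and 76.5% of all 30-tag enhancers, and the median length was 358 and 359 bp. Neighbours can belong to 1 regulatory region, so members are not independent of each other.

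In all, 63 members formed 20 groups of 3 or 4 with gaps of at most 50 kb, and 15 of the groups had their highest 3 h sum with both stimuli. Singly, 62.1% of the members and 46.5% of all 30-tag enhancers were highest at 3 h with both stimuli. A high 3 h level with both stimuli helps to meet the rule, and no groups of other enhancers were formed for comparison. The 3 members over chr1:176651455-176661898 summed to 9.15 RPM with both stimuli at 3 h, 4.07 RPM with IFN-γ, 0.681 RPM with CpG and 0.731 RPM in unstimulated cells. The 3 over chr1:125390593-125396055 summed to 3.40, 0.690, 0.0755 and 0.0362 RPM in that order, and the 3 over chr11:81957936-81979149 to 2.56, 0.761, 0.149 and 0.0362 RPM. In these regions the sum was highest with the mixture and next with IFN-γ. The 4 members over chr2:13409909-13422300 behaved otherwise, with 4.53 RPM with both stimuli, 1.06 RPM with IFN-γ, 4.83 RPM with CpG and 4.84 RPM in unstimulated cells, and so did the 3 over chr6:125448366-125470451, with 0.7004, 0.344, 0.981 and 1.79 RPM. Over both of these regions IFN-γ alone had the lowest sum at 3 h.

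In total, 252 of the 485 early enhancers were called in at least 1 of the 10 comparisons and 233 in none, and 39.6% of all tested enhancers were called in at least 1. At a median total of 46 tags and 2 libraries a group, a member without a call is not shown to be alike between groups.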

How the data were processed

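Capped RNA 5′ ends of 20 libraries were measured by nAnT-iCAGE. The authors deposited a table of raw tag counts per enhancer and a table of the same enhancers as RPM, both on mm39. HISAT2 2.1.0, BWA 0.7.10, Trimmomatic 0.38 and FastQC 0.11.5 are listed in the submitters' processing notes, with no role or order. How enhancers were called is not given in the sources used here. Start coordinates are printed as deposited, and whether they count from 0 or 1 is not stated. RPM values were divided by whole-library totals of 12776280 to 13855472 tags, so 1 tag was worth 0.0722 to 0.0783 RPM.

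Members were chosen on the 3 h and 15 h RPM values and on the tag total over all 20 libraries. The members and the lists were chosen with earlier results of these data known. Counts of the 3969 enhancers with at least 30 tags were tested with edgeR 4.0.16 (R 4.3.3): TMM scaling on enhancer tags, 10 group coefficients without a block, 10 residual degrees of freedom, a robust two-sided quasi-likelihood F-test and Benjamini-Hochberg adjustment over the 3969, in 10 comparisons. All 485 members were tested. The procedure was tested on simulated counts. The series text calls the 2 libraries of a group biological replicates, and separate animals are not stated, so p-values measure the spread between these libraries. Folds and bounds are ratios of tags per whole-library total, while the p-values beside them come from enhancer tags with TMM scaling. For both stimuli against IFN-γ at 3 h, the median log2 difference over all tested enhancers was 0.63 on the first scale and 0.21 on the second. Bounds against a group with no tag use a floor of 3 tags over the group, and these and the exact intervals cover counting error only.

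Named enhancers were the 8 highest at 3 h, the 8 with the highest ratio among those with 30 tags at 3 h, the 3 largest calls each way per comparison whose libraries did not overlap, and the 2 nearest each side of the threshold. The reference genome at hand is of another build, so the part of the naming rule that uses genes was not run. Alternatives were DESeq2 1.42.0, whole-library totals, RLE size factors, 2 other filters, a replicate block, the compared groups alone, other settings of the choice of members, and each replicate left out.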

Additional observations from a re-analysis of the deposited data

Results flagged for a closer look

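Among the early enhancers called between IFN-γ and CpG at 9 h, 13 (2.68%) lay on opposite sides of unstimulated cells, as did 3.75% of all tested enhancers: every library of one stimulus was above both unstimulated libraries and every library of the other below them, in RPM. At chr5:90759196-90759569 equal tag numbers differ in RPM only by library depth: it had 1 and 0 tags with IFN-γ and 8 and 4 with CpG, against 4 and 1 in unstimulated cells. The difference between the stimuli was tested with edgeR, and the adjusted p is given with each. Higher with IFN-γ were chr1:176651455-176651913 (at least 13.3-fold, adjusted p = 3.43e-10), chr10:62784388-62784717 (at least 6.16-fold, adjusted p = 0.000675), chr1:131631152-131631612 (10.7-fold, 95% counting interval 2.63 to 93.9, adjusted p = 0.00245), chr4:128953861-128954275 (at least 3.89-fold, adjusted p = 0.00517), chr7:144664396-144664792 (5.597-fold, adjusted p = 0.00737), chr1:106244514-106245111 (8.76-fold, interval 2.097 to 77.9, adjusted p = 0.00808), chr13:23770605-23770777 (at least 2.92-fold, adjusted p = 0.0253) and chr6:82741188-82741493 (2.92-fold, adjusted p = 0.0376).

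Lower with IFN-γ were chr12:111408030-111408436 (at least 6.51-fold, adjusted p = 0.000378), chr1:64340723-64341191 (13.4-fold, interval 2.01 to 568, adjusted p = 0.0269), chr13:49344274-49344577 (at least 2.74-fold, adjusted p = 0.0379), chr5:90759196-90759569 (12.3-fold, interval 1.82 to 527, adjusted p = 0.0457) and chr5:86221518-86221903 (5.48-fold, interval 1.57 to 29.3, adjusted p = 0.0478). The last 4 rest on few tags: chr13:49344274-49344577, for example, had 0 and 0 tags with IFN-γ and 3 and 5 with CpG, against 2 and 2 in unstimulated cells. The calls of chr1:176651455-176651913, chr10:62784388-62784717 and chr12:111408030-111408436 were kept when any 1 library was left out, and each of the other 10 was lost without at least 1 library.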

How the results depend on the processing

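No named result changed direction, but the named tests were chosen as calls, which made a change of direction unlikely beforehand. Of 1150 values for 104 named tests of 65 enhancers, 886 kept their side of the threshold and 264 fell below it. Most of those that fell came from fits without 1 library. Settings that gave a test no adjusted p are not among the 1150. With DESeq2, 34 values kept their side and 38 fell below it, and the other named tests had no adjusted p. Numbers of members called are given in the order stimulated mean, IFN-γ, CpG and both stimuli at 9 h against unstimulated; at 3 h IFN-γ against CpG, both against IFN-γ and both against CpG; then the same 3 at 9 h. The replicate block gave 82, 78, 18, 76, 63, 6, 124, 57, 9 and 11. With the block, the calls of chr13:5819692-5820039 (adjusted p = 0.0536) and chr8:66844292-66844708 (0.0545) for both stimuli against IFN-γ at 3 h, and of chr5:90759196-90759569 (0.0553) and chr5:86221518-86221903 (0.0533) for IFN-γ against CpG at 9 h, were above the threshold in edgeR. No pairing of samples by replicate number was seen: over 45 pairs of groups the correlations of replicate differences were -0.0478 to 0.0424. Replicate differences were mostly counting error, with a chi-square per degree of freedom of 1.09 to 1.17. Such correlations could therefore hardly show a pairing, and it is not excluded. DESeq2 gave 17, 20, 0, 19, 9, 0, 19, 11, 1 and 2. Over all tested enhancers it called 2.65%, 3.4%, 0.857%, 4.06%, 1.59%, 0.0252%, 2.29%, 3.0%, 0.554% and 1.06%. The share called over all tested enhancers also fell in every fit without 1 library. Without the filter on low totals, the counts that moved by over 1.5 times were 50, 46, 5 and 50 against unstimulated cells, 31 for IFN-γ against CpG and 0 for both against IFN-γ at 3 h (94 members at an unadjusted p under 0.05 by edgeR), and 36, 4 and 5 at 9 h. Whole-library totals gave 12 for CpG against unstimulated and 27 for both against IFN-γ at 3 h. The compared groups alone gave 30 and 18 there. Leaving out 1 library at a time gave 37 to 79, 25 to 46, 3 to 7, 38 to 51, 17 to 26, 0 to 1, 38 to 86, 21 to 30, 2 to 3 and 2 to 5. The members numbered 944 at a fold of 1.5, 179 at a fold of 3, 157 at 60 tags, 947 from IFN-γ columns alone, 984 from combination columns alone and 389 to 601 without 1 replicate. With 60 tags, 129 were nearer 15 h at 9 h and 55 were below 50% in unstimulated cells, and without 1 replicate 341 to 368 and 221 to 235. The causes were not tested, apart from the fewer libraries or enhancers a setting leaves. Low tag totals per enhancer limit the precision throughout.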
